A study of Mus musculus with 10 samples.

Results

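The genes described here are 10 genes of memory and effector T cells: Eomes, Tbx21, Ccl5, Nkg7, Gzmm, Cd44, Ly6c2, Il2, Ifng and Klrd1. They were taken by symbol from a table of read counts for 56893 genes, and all 10 were found. The counts come from poly(A) RNA of primary mouse splenic T cells and B cells after CRISPR interference at promoters of Pou2f1. This method blocks transcription with a Cas9 that cannot cut, brought to the promoter by a guide RNA. The groups were mock T cells, T cells with the guide sgRNA-P1 against the P1 promoter of Pou2f1, mock B cells, B cells with sgRNA-P1, and B cells with sgRNA-P2 against the P2 promoter. Each of the 5 groups was deposited as 2 columns labelled as replicates. What mock cells received, how cells were selected or stimulated, how long the guides acted, and the strain, age and number of mice are not stated in these sources.

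Pou2f1 encodes Oct-1, a transcription factor with a POU domain that binds the octamer ATGCAAAT and its variants. Oct-1 is known to act at Il2 and Ifng, and it has been linked to the memory response of T cells. Naive T cells that meet antigen become effector cells that secrete cytokines and carry cytotoxic granules, and some persist as memory cells. The T-box factors T-bet (Tbx21) and Eomesodermin (Eomes) direct much of that programme. Memory cells are recognised by high CD44 and, in the mouse, often by Ly6C.

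In T cells, the levels of most of the 10 genes in the library with sgRNA-P1 lay close to those in the mock library. Tbx21 was lowest, at 84.1% of mock with a counting interval of 70.7% to 99.8%. None of the 8 at the level required for a call (5 CPM) differed by 1.5-fold or more, where 0.11% of all 10007 genes did. Il2 and Gzmm were below that level and could not be called, and their counting intervals hold a 1.5-fold rise. The separation of T cells from B cells was large for Eomes, Nkg7, Ccl5, Klrd1, Ly6c2, Ifng and Il2. It was smaller for Tbx21 and Gzmm, and smallest for Cd44, which was a well-expressed gene of both cell types.

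The columns of a group could not be used as separate samples. In each group, all but 5 or fewer of the genes with reads (23781 of 23786 in mock T cells) matched a single count divided in a fixed proportion to within 1 read. The mean chi-square between the columns was 0.00229 to 0.00283 per gene, below what independent sampling of reads gives, so both columns were added up and each group entered as 1 sample. After summing, depth ran from 28118839 reads in B cells with sgRNA-P2 to 71858511 reads in mock T cells. A comparison of a guide with mock therefore has no replicate check and no p-value, and its 95% intervals cover counting error only. Levels are given as CPM (counts scaled to library size with TMM factors) and between genes as RPKM, which divides by the length of the gene's exons as well. Pou2f1, the targeted gene, measured 138 CPM in the mock T library and 66.1 CPM under sgRNA-P1, which is 47.9% of mock. In B cells it was at 157 CPM in mock, 91.1 CPM with sgRNA-P1 and 86.5 CPM with sgRNA-P2. Its exons share 3007 bases with Cd247 on the opposite strand, at 314 CPM in mock T cells, and the strand setting of the counting is not given, so its level in T cells is uncertain.

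Markers matched the labelled cell types. The 11 T cell markers summed to 5228 and 5117 CPM in the T libraries and to 224 to 232 CPM in the B libraries, where most of it was Cd2 and Lck and where Cd3e had 3, 0 and 0 reads. The 9 B cell markers summed to 366 and 347 CPM in the T libraries, mostly Ighm, and to 18268 to 18707 CPM in the B libraries. Cd4 was at 656 and 655 CPM and Cd8a at 396 and 401 CPM in the T libraries, so both lineages were present. Several of the 10 genes are also known in natural killer (NK) cells. In the T libraries none of 10 NK cell markers reached 5 CPM. Their sum was 8.58 and 8.44 CPM, led by Klrb1c (3.13 and 3.61) and Klre1 (2.83 and 2.50), with Ncr1 at 0.222 and 0.200 CPM. In the B libraries the same list summed to at most 11.4 CPM, most of it Tyrobp. Neutrophil and erythroid markers summed to less than 1 CPM in each T library, and the 10 monocyte markers to 37.3 CPM in mock T cells, 35.0 of it Ccr2 (37.6 with sgRNA-P1). The part of such cells in the levels below was not tested. In bulk RNA, fewer cells that express a gene and less RNA per cell cannot be told apart.

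The transcription factors differed in how far they were restricted to T cells. Eomes (chr9:118307280-118315200, plus strand; this and the following positions without a named build are those of the deposited table, for which the submitters' processing notes name mm39 as the mouse build) was at 32.5 CPM in the mock T library and at 31.8 CPM in that with sgRNA-P1. No read of Eomes was counted in any of the 3 B libraries, for which the exact 95% upper limits are 0.218 CPM in mock, 0.153 CPM with sgRNA-P1 and 0.262 CPM with sgRNA-P2. The T libraries agreed closely and stood apart from all B libraries. By the lower 95% limit of counting, Eomes was at least 149-fold higher in the mock T than in the mock B library. Its log2 difference between sgRNA-P1 and mock in T cells was -0.03 (95% interval -0.17 to 0.11).

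Tbx21 (chr11:96988897-97006157, minus strand), which is also known in some B cells, was present in both cell types. Its level was 11.7 CPM in mock T cells, 9.87 CPM in T cells with sgRNA-P1, 5.35 CPM in mock B cells, 5.85 CPM in B cells with sgRNA-P1 and 5.90 CPM in B cells with sgRNA-P2. The T libraries were the 2 highest, and the B libraries lay close together. Its log2 difference in T cells, -0.25 (-0.50 to -0.00), was the lowest of the genes described here and ranked 161 from the lowest of 10007 genes at 5 CPM or more. It was under the 1.5-fold size rule, and its counting interval ended just below 0, at -0.0024. In B cells the corresponding log2 differences from the shared mock library were 0.13 (-0.27 to 0.52) with sgRNA-P1 and 0.14 (-0.31 to 0.58) with sgRNA-P2. The difference of the guide effect between T and B cells was tested by an interaction term in edgeR, described below, and for Tbx21 it was -0.39 on the log2 scale with an unadjusted p of 0.135 and an adjusted p of 0.9999.

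**Figure D1:**
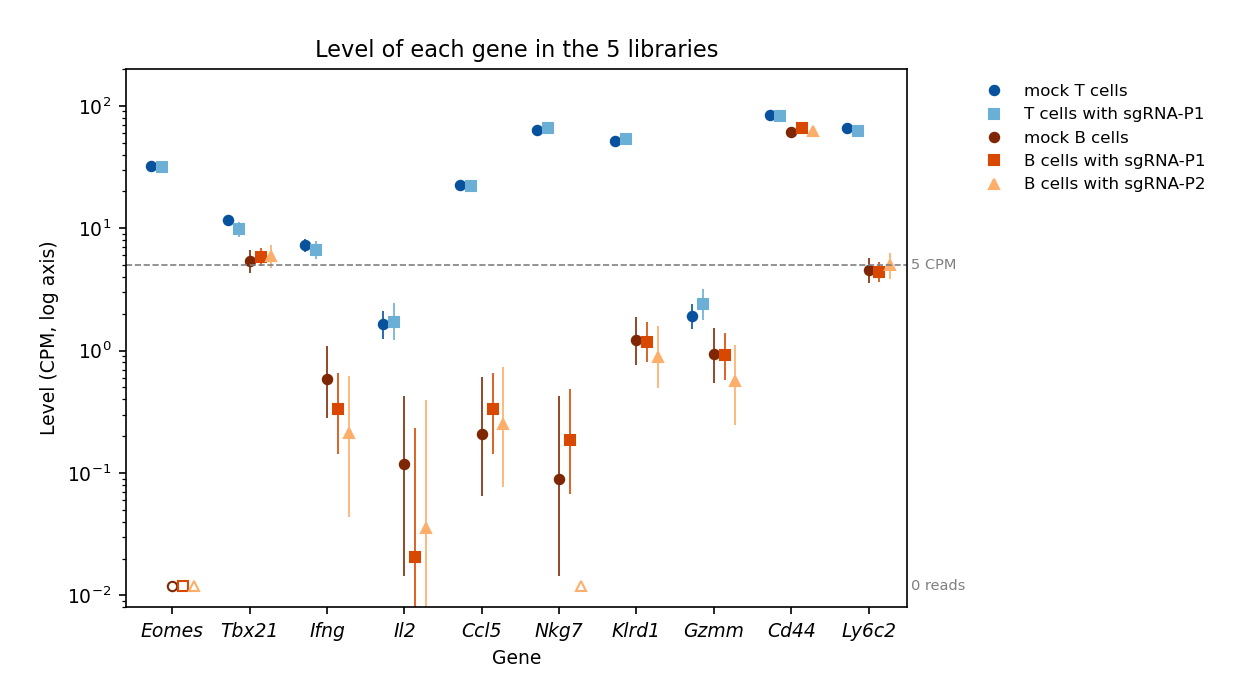
Level of the 10 genes (CPM, log axis) in the 5 libraries, with exact Poisson 95% intervals that cover counting error only. Open symbols at the bottom mark libraries with 0 reads, and the dashed line marks 5 CPM. For each gene both T libraries sit above the 3 B libraries, by 1.25-fold (lowest T over highest B) for Cd44 and by 337-fold for Nkg7.

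The cytokine genes Ifng and Il2 are the members with known Oct-1 sites near their promoters, and their promoter windows are shown for that reason. The sequences are the 250 bases before the annotated start from RefSeq on GRCm38.p6, at chr10:118440796-118441045 (plus strand) for Ifng and chr3:37125955-37126204 (minus strand) for Il2. Capitals in Ifng mark ATGCAAA, which is the octamer without its last base, and TATAAA. Capitals in Il2 mark GGAAAA, the core bound by NFAT factors, on the plus strand of the gene and as TTTTCC for the opposite strand, and TATAAA.
Ifng: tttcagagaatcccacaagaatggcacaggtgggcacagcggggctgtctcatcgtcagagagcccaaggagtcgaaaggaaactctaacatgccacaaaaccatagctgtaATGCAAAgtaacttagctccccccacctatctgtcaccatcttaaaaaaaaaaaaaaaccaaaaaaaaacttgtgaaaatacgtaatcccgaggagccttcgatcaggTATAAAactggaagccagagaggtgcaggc
Il2: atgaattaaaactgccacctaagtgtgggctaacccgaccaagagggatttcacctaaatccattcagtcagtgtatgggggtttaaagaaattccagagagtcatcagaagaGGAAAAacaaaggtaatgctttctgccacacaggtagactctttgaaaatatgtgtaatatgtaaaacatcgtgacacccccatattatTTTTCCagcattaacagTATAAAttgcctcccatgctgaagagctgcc
The 7 bases ATGCAAA lay 138 to 132 bases before the start of Ifng. They were found on either strand in 4.12% of 32851 mouse promoter windows of this length. The full octamer ATGCAAAT, present in 526 of all windows, was in none of the windows of the 8 members that had one in the RefSeq table. GGAAAA was in the windows of Il2, Cd44 and Gzmm, against 20.4% of all windows, and TATAAA in those of Ifng and Il2, against 12.4%. The T-box motif AGGTGTGA was in the window of Nkg7, 14 to 7 bases before its start, against 1.12% of all windows. The AP-1 motif TGANTCA, in 6.75% of all windows, was in none of the members'. Both strands were searched for each motif, and the octamer contains ATGCAAA. A match of letters is a description and not a bound site. Variants of the octamer other than ATGCAAA were not searched, so any such site in the windows, including that of Il2, is not marked. Ccl5 and Klrd1 were not searched.

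Ifng (chr10:118276951-118281797, plus strand) encodes interferon gamma, the cytokine of T helper 1 and CD8 T cells that activates macrophages. Its level was 7.24 CPM in mock T cells (522 reads) and 6.64 CPM with sgRNA-P1 (265 reads). In B cells it had 20 reads in mock (0.591 CPM), 16 with sgRNA-P1 (0.332 CPM) and 6 with sgRNA-P2 (0.213 CPM). The lowest T library was 11.2-fold above the highest B library, and the intervals of the B libraries overlapped. With sgRNA-P1 in T cells the log2 difference from mock was -0.12 (-0.43 to 0.19), an interval that holds 0. In B cells the log2 differences, -0.82 (-2.38 to 0.66) and -1.32 (-3.97 to 0.49), rest on so few reads that no difference was detectable at this depth. Ifng shares 336 exon bases with the predicted gene Gm49751 on the same strand, which was at 3.29 CPM in mock T cells. Because reads in the shared bases can be assigned to either or to neither, the level of Ifng is uncertain.

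Il2 (chr3:37174672-37180108, minus strand), the growth factor that T cells secrete on activation, was near the limit of the data. It had 118 reads in mock T cells (1.64 CPM) and 69 with sgRNA-P1 (1.73 CPM), against 4, 1 and 1 reads in the B libraries. The T libraries did not differ from each other beyond counting error, with a log2 difference of 0.09 (-0.55 to 0.73), and both were above the B libraries. A difference of 1.5-fold upward lies within that interval. The transcript of Il2 (1144 bases in GENCODE M21) shares an identical run of 187 bases near its 3' end, bases 947 to 1133, with a transcript of Ntan1, a gene for an amidase. Ntan1 was at 29.4 and 29.7 CPM in the T libraries and at 31.8 to 34.6 CPM in the B libraries, where Il2 had at most 4 reads.

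Of the chemokine, cytotoxic granule and receptor genes, Nkg7, Ccl5 and Klrd1 stood far apart between the cell types, and Gzmm did so by much less. Nkg7 (chr7:43086497-43087673, plus strand), a membrane protein of cytotoxic granules, was at 63.0 CPM in the mock T library and 65.7 CPM in the library with sgRNA-P1. It had 3, 9 and 0 reads in the B libraries. The ratio of mock T to mock B cells was 710, with a counting interval of 147 to 4.4e+03, since only 3 reads stood on the B side. Its log2 difference in T cells was 0.06 (-0.04 to 0.16).

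Ccl5 (chr11:83416604-83421344, minus strand) encodes RANTES, a chemokine that memory T cells store as mRNA and release quickly. Its level was 22.4 CPM in mock T cells, 22.1 CPM in T cells with sgRNA-P1, 0.207 CPM in mock B cells, 0.332 CPM in B cells with sgRNA-P1 and 0.249 CPM in B cells with sgRNA-P2. The B libraries held 7 to 16 reads and did not differ beyond counting error. The T libraries differed by -0.02 (-0.19 to 0.15) on the log2 scale.

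Klrd1 (chr6:129568745-129575738, plus strand) encodes CD94, the partner of NKG2 receptors on NK and CD8 T cells. Its T cell levels were 51.2 CPM in mock and 53.3 CPM with sgRNA-P1. Its B cell levels were 1.21, 1.18 and 0.889 CPM, in the order mock, sgRNA-P1 and sgRNA-P2. The lowest T library was 42.2-fold above the highest B library. In T cells the log2 difference was 0.06 (-0.05 to 0.17). Its partner Klrc1, the gene for NKG2A, was at 6.12 and 6.11 CPM in the T libraries.

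Gzmm (chr10:79524854-79531095, plus strand), the gene for granzyme M, a granule protease, was low everywhere. It had 138 reads (1.91 CPM) in mock T cells and 96 reads (2.40 CPM) with sgRNA-P1. In the B libraries its level was 0.946, 0.913 and 0.569 CPM, from 16 to 44 reads. The lowest T library was 2.02-fold above the highest B library, and the order within each cell type was not resolved by counting. The log2 difference in T cells was 0.33 (-0.23 to 0.88), with both libraries under 5 CPM.

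Of the surface genes, Cd44 (chr2:102641486-102732010, minus strand), the receptor for hyaluronan that marks antigen-experienced T cells, was the member with the smallest difference between the cell types. It measured 83.7 CPM in mock T cells, 82.8 CPM in T cells with sgRNA-P1, 61.1 CPM in mock B cells, 66.0 CPM in B cells with sgRNA-P1 and 62.5 CPM in B cells with sgRNA-P2. The mean of the B libraries was 75.9% of that of the T libraries. The log2 difference with sgRNA-P1 was -0.02 (-0.10 to 0.07) in T cells and 0.11 (-0.00 to 0.22) in B cells. With sgRNA-P2 in B cells it was 0.03 (-0.10 to 0.16), and between the guides 0.08 (-0.04 to 0.20).

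Ly6c2 (chr15:74980007-74983819, minus strand) and its neighbour Ly6c1 encode the nearly identical Ly6C antigens. Their coding sequences of 396 bases (GENCODE M21) match at 387 positions, or 97.7%, and the longest identical run is 188 bases. The first 120 coding bases are shown because they hold 6 of the 9 differences, which are in capitals.
Ly6c2: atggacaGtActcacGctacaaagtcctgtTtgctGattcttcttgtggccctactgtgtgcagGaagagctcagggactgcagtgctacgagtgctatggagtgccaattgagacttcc
Ly6c1: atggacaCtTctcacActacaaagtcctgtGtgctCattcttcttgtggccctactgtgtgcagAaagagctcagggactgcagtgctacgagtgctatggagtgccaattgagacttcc
Of the 50-base stretches of Ly6c2 transcripts, 13.9% also occur in Ly6c1, so some reads cannot be placed in either gene with certainty. Ly6c2 was at 65.4 CPM in mock T cells, 62.8 CPM in T cells with sgRNA-P1, 4.52 CPM in mock B cells, 4.38 CPM in B cells with sgRNA-P1 and 4.98 CPM in B cells with sgRNA-P2. Ly6c1 was at 32.8 and 35.1 CPM in the T libraries and had 5, 3 and 1 reads in the B libraries, where Ly6c2 had 153, 211 and 140. In the B libraries reads of the pair were therefore nearly all counted for Ly6c2. The log2 difference with sgRNA-P1 in T cells was -0.06 (-0.16 to 0.04) for Ly6c2 and 0.10 (-0.04 to 0.23) for Ly6c1.

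Per length, the order of the 10 genes in mock T cells ran from Nkg7 at 68.9 RPKM and Klrd1 at 40.4 RPKM down to Il2 at 1.43 RPKM and Gzmm at 1.30 RPKM. Between them lay Ly6c2 (23.9 RPKM), Ccl5 (23.3), Cd44 (12.4), Eomes (7.83), Ifng (5.59) and Tbx21 (4.71). The counting intervals of 3 neighbouring pairs overlapped: Ly6c2 and Ccl5, Ifng and Tbx21, and Il2 and Gzmm. With sgRNA-P1 the order was the same apart from exchanges within the first and the last of these pairs. Among all genes with reads in mock T cells, Nkg7 stood at percentile 97.7 by RPKM and Gzmm at percentile 52.8. In mock B cells Cd44, at 9.02 RPKM, stood alone at the top. Tbx21 (2.15 RPKM) and Ly6c2 (1.65 RPKM) came next, with intervals that overlapped, and Eomes was last with no read. The 10 genes together took 0.0342% of reads in mock T cells, 0.0344% with sgRNA-P1, and 0.00741% to 0.00778% in the B libraries.

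The difference between the cell types was tested with edgeR's quasi-likelihood test, with the 2 T libraries and the 3 B libraries as the samples of a cell type and a term for the guide. Whether the libraries come from separate animals or cultures is not given, so its p-values measure only the spread between these 5 libraries. All 10 genes were higher in T cells at a Benjamini-Hochberg adjusted p under 0.05 over 17581 genes, where 32.4% of all genes were. With the further condition of 1.5-fold, 9 were called higher, against 21.0% of all genes (and 20.8% called lower), and Cd44 was the exception. The genes were picked as T cell genes, so this share says nothing particular about them. The median log2 difference of the 10 genes was 4.47, where Eomes, with no B read, counts only as above the median, against 0.01 for all genes. In mock libraries alone, 8 genes reached 5 CPM and 7 of them were 1.5-fold or more higher in T cells, where 18.6% of all 10804 genes at that level were (18.4% were lower and 37.0% called in all).

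Fitted sizes spanned a wide range in this test. By edgeR's quasi-likelihood test with Benjamini-Hochberg adjustment, the log2 difference of T over B cells was 9.17 for Nkg7 (adjusted p = 2.7e-15), 6.33 for Ccl5 (5.6e-14), 5.54 for Klrd1 (2.0e-15) and 3.78 for Ly6c2 (6.0e-15). For the cytokine genes the same test gave 4.83 for Il2 (adjusted p = 6.8e-07), on 6 reads in all B libraries, and 4.11 for Ifng (6.6e-10). The size for Il2 was 3.75 without the T library with sgRNA-P1, 5.86 without the mock T library and 5.89 without the mock B library, and that for Nkg7 was 10.27 without the B library with sgRNA-P1. Each of these kept an adjusted p under 0.05 in edgeR's test. In edgeR's test Gzmm had 1.37 (adjusted p = 5.4e-04), Tbx21 0.90 (1.5e-05) and Cd44 0.39 (1.7e-05). For Eomes, whose fitted size depends on the prior count, the adjusted p of edgeR's test was 1.5e-13. For every gene both T libraries were above all 3 B libraries, which held for 39.6% of genes tested. The call of Gzmm rested on the T library with sgRNA-P1: without it edgeR gave a log2 difference of 1.01 with an adjusted p of 0.0726.

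**Figure D2:**
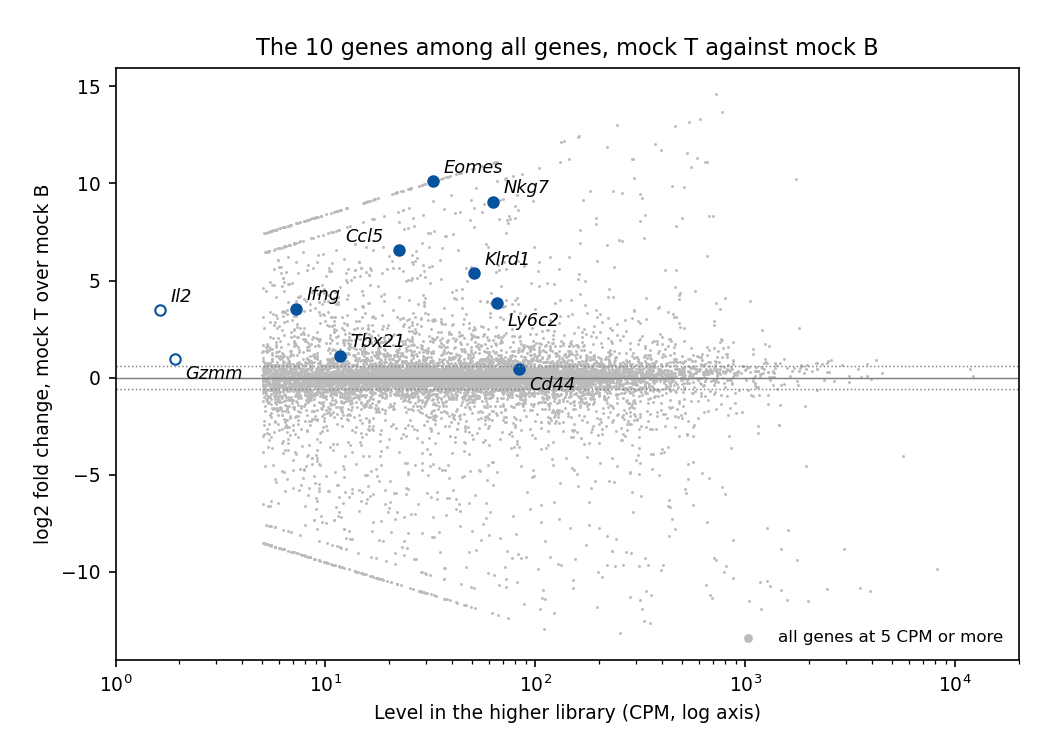
Log2 fold change of mock T over mock B cells (with a prior of 1 read) against the level in the higher library (CPM, log axis), for all genes at 5 CPM or more (grey) and the 10 genes (blue; open symbols for Il2 and Gzmm, which are under 5 CPM). Dotted lines mark 1.5-fold. Nkg7 (9.06), Ccl5 (6.57) and Klrd1 (5.37) lie far above the line at 1.5-fold and Cd44 (0.45) lies below it; the point of Eomes, with 0 reads in B cells, depends on the prior.

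The question of the design for T cells is what repression of the P1 promoter of Pou2f1 changes. Of the 10 genes, 8 reached 5 CPM in a T library and 0 differed by 1.5-fold or more between sgRNA-P1 and mock, where 0.11% of all 10007 genes did. Their median log2 difference was -0.03, against -0.02 for all genes, and single values ran from -0.25 for Tbx21 to 0.06 for Nkg7. For Eomes, Ccl5, Nkg7, Cd44, Ly6c2 and Klrd1 the intervals stayed within 0.19 of 0 on the log2 scale. For Gzmm and Il2 they were several times wider. Those of Ifng (-0.43 to 0.19) and Tbx21 (-0.50 to -0.0024) lay between, and that of Tbx21 was wholly below 0.

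In B cells, Tbx21 and Cd44 were the members at 5 CPM or more, and 0 of these 2 were called. The background was 0.735% of genes for sgRNA-P1 against mock, 0.278% for sgRNA-P2 against mock and 0.418% for sgRNA-P1 against sgRNA-P2. The comparisons of the guides with mock share the mock B library and are not independent. Tbx21 differed by -0.02 (-0.41 to 0.40) on the log2 scale between the guides.

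**Figure D3:**
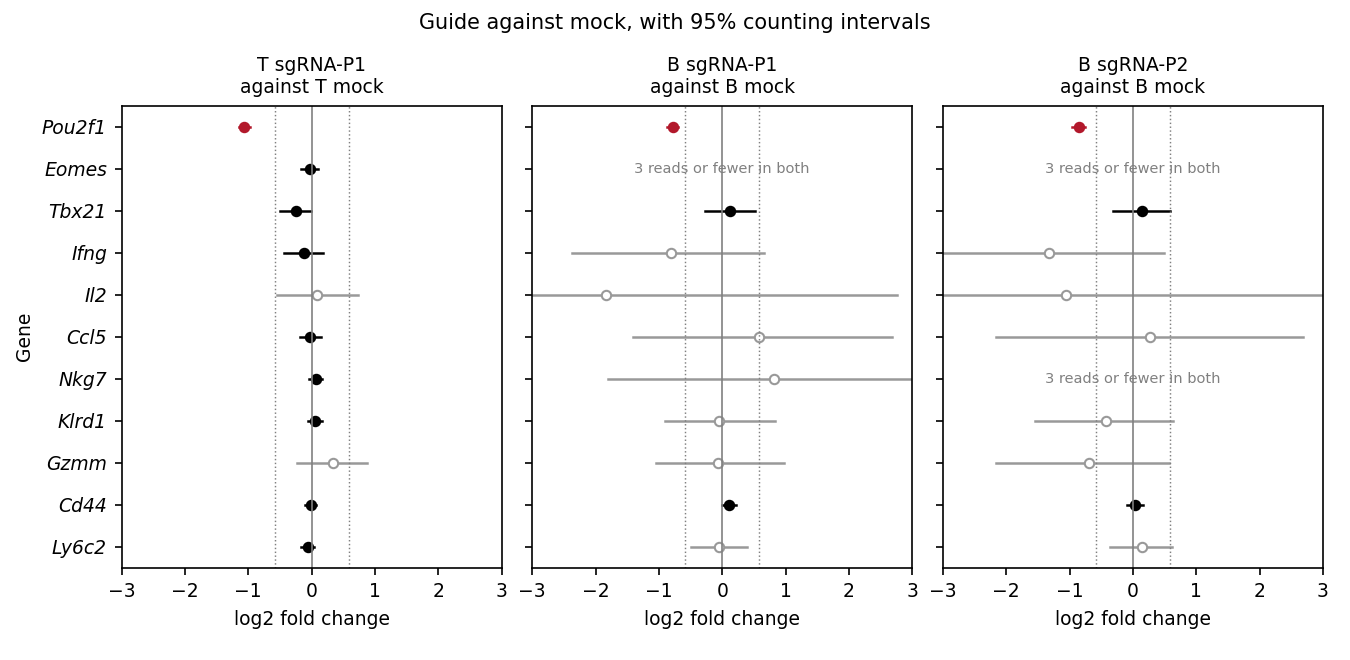
Log2 fold change of each guide over mock for Pou2f1 (red) and the 10 genes, with exact 95% counting intervals; filled black points are genes at 5 CPM or more and open grey points are genes below. Dotted lines mark 1.5-fold. Pou2f1 lies beyond the line in each panel (-1.06, -0.78 and -0.86), and no filled point of the 10 genes does.

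A guide term over all 5 libraries, which assumes that both guides and both cell types respond alike, was tested in the same edgeR fit. By edgeR's quasi-likelihood test with Benjamini-Hochberg adjustment, 0 of the 10 genes were called, with adjusted p-values of 0.9996. All of their unadjusted p-values were above 0.05, the lowest being 0.199 for Ifng at a log2 difference of -0.31. Of all genes, 0.0284% were called, that is 5 genes with Pou2f1 first (-0.92, adjusted p = 5.7e-06), and 427 (2.43%) had an unadjusted p under 0.05. DESeq2 called 4 genes, none of them among the 10. Il2 had a fitted log2 difference of -0.17 and Tbx21 of -0.06, and the other members lay between -0.03 and 0.07. With the mock T library or the T library with sgRNA-P1 left out, the guide term rests on the B libraries. There edgeR gave -2.03 to -2.06 for Il2, on 4, 1 and 1 reads in mock, sgRNA-P1 and sgRNA-P2. For Ifng it gave -1.04, on 20, 16 and 6 reads. The log2 difference in T cells was 0.09 for Il2 and -0.12 for Ifng. An interaction term for a guide effect that differs between T and B cells, tested by edgeR with 1 residual degree of freedom, called 0 of the 10 genes, against 0.0161% of 18669 genes, of which 3.66% had an unadjusted p under 0.05. All members had an unadjusted p above 0.05, the lowest being 0.0961 for Ifng (log2 difference 0.91).

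The programme around the 10 genes was followed through lists of related genes. Of 38 other effector and memory T cell genes, 27 reached 5 CPM in a T library. Of these, 0 passed 1.5-fold between sgRNA-P1 and mock, against 0.11% of all genes. Their median log2 difference was 0.00, and the values ran from -0.31 to 0.22. The lowest was Gzmb, the gene for granzyme B, at 8.01 CPM in mock and 6.46 CPM with sgRNA-P1 (-0.31, interval -0.62 to -0.01). The highest per length were the integrin gene Itgal (812 and 773 CPM), the cathepsin gene Ctsw (162 and 167 CPM), the early activation gene Cd69 (506 and 508 CPM) and Il2rb, the beta chain of the IL-2 and IL-15 receptors (328 and 324 CPM). These 4 lay within 0.10 of 0 on the log2 scale. Between the cell types the same list was mostly higher in T cells. By edgeR's quasi-likelihood test with the 1.5-fold condition, 29 of 37 tested genes were called higher and 5 lower, against 21.0% and 20.8% of all genes. Ctsw had no more than 0.249 CPM in a B library. Cd69 went the other way, with 607 to 710 CPM in B cells, a log2 difference of -0.35 that is under 1.5-fold. Zeb2, a transcriptional repressor known in effector T cells and in B cells, had 108 and 44 reads in the T libraries and was at 58.9 to 67.8 CPM in B cells.

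Among 13 helper T cell cytokine genes, which do not include Il2 and Ifng, 3 reached 5 CPM in a T library. Lta, the gene for lymphotoxin alpha, was at 25.7 CPM in mock and 22.8 CPM with sgRNA-P1 (-0.17, interval -0.33 to -0.01). Tnf was at 23.2 CPM in both libraries, and Il17a at 8.97 and 8.44 CPM. None of the 3 passed 1.5-fold, against 0.11% of all genes. Il17a had no read in any B library, whereas Lta was at 29.4 to 30.9 CPM in the B libraries. Of the 8 cytokine genes that edgeR tested between the cell types, 6 were called higher in T cells and 0 lower, against 21.0% and 20.8% of all genes.

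All 14 naive T cell genes reached 5 CPM in T cells, and 0 of them passed 1.5-fold, against 0.11% of all genes. Their median log2 difference was -0.02, the same as that of all genes to 2 decimals. Of the 14, 13 lay below 0 and 1 above, with 6 counting intervals wholly below 0 and 0 wholly above. How many of all genes have such intervals was not counted. The intervals are narrow at this depth and cover counting error only. Of the 27 other effector and memory genes, 16 lay above 0 and 11 below, with 2 intervals wholly above and 2 wholly below. Tcf7, which encodes the factor TCF1, had 1734 CPM without and 1632 CPM with sgRNA-P1, a log2 difference of -0.09 (-0.11 to -0.07). Klf2, a factor for lymphocyte trafficking, had -0.13 (-0.15 to -0.10), Ccr7 -0.00 (-0.04 to 0.03) and S1pr1 -0.02 (-0.05 to 0.01). Between the cell types edgeR called 9 of the 14 higher and 2 lower in T cells, against 21.0% and 20.8% of all genes. In mock T cells Tcf7 was at 574 RPKM, above each of the 10 effector and memory genes.

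Transcription factors that act on Il2 and Ifng were well expressed in T cells. Of 18 such regulators, which do not include Tbx21 (-0.25), 17 reached 5 CPM and 0 passed 1.5-fold, against 0.11% of all genes. Their median log2 difference was -0.05, against -0.02 for all genes, with no value beyond 0.11 in size. Of the 17, 13 lay below 0 and 4 above, with 9 counting intervals wholly below 0 and 1 wholly above. Here too the number of all genes with such intervals was not counted, and the intervals cover counting error only. Fos was at 1401 CPM in mock and 1318 CPM with sgRNA-P1 (-0.09), Junb at 1285 and 1205 CPM (-0.09), Jun at 852 and 829 CPM (-0.04) and Ikzf1 at 982 and 967 CPM (-0.02). Nfatc1 and Nfatc2, NFAT factors that bind with AP-1 at Il2, both had -0.11, at the low end of the list. Nfatc3 of the same family was at 404 CPM in mock and 389 CPM with sgRNA-P1. Rel had the highest value of the list, 0.08, at 118 and 124 CPM. Differences were also small for the receptor genes of both cytokines, with a median of -0.02. All 5 reached 5 CPM and 0 passed 1.5-fold, against the same 0.11% of all genes. Il2ra, the alpha chain that activated and regulatory T cells carry, was at 113 and 117 CPM, Il2rg at 666 and 634 CPM and Ifngr1 at 143 and 142 CPM. Between the cell types edgeR called 7 of the 18 regulators higher and 4 lower in T cells, and 4 of the 5 receptor genes higher and 1 lower. Of all genes, 21.0% were called higher and 20.8% lower.

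**Figure D4:**
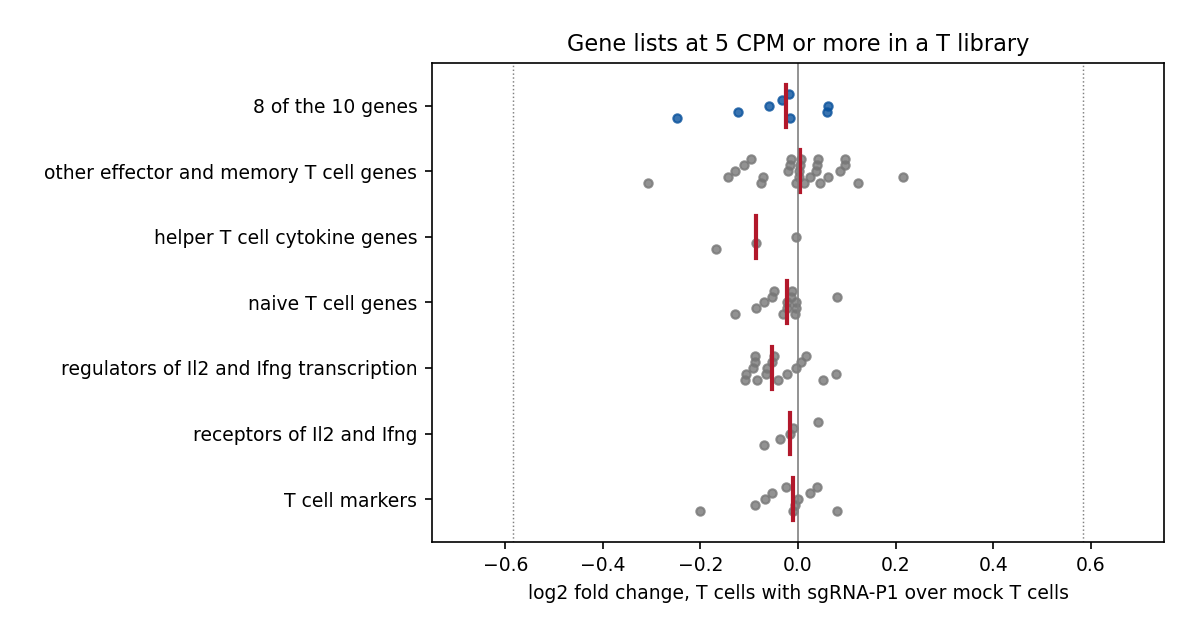
Log2 fold change of T cells with sgRNA-P1 over mock T cells for genes at 5 CPM or more in a T library, in the 10 genes (8 shown, blue), 5 related lists and the T cell markers; red bars are medians. Dotted lines mark 1.5-fold. All genes shown lie within the lines, and the medians run from -0.09 (helper T cell cytokine genes) to 0.00.

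In B cells the lists stayed within 1.5-fold as well. Of the other effector and memory genes, 14 reached 5 CPM in a B library, with median log2 differences of 0.08 for sgRNA-P1 and 0.03 for sgRNA-P2, and 0 were called in either. Of the naive T cell genes 10 did, with medians of 0.05 and 0.00, and 0 were called. Of all genes, 0.735% were called for sgRNA-P1 and 0.278% for sgRNA-P2, so 0 calls in lists of this size say little about these genes.

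Profiles over the 5 libraries were compared for Ccl5 and Cd44, which stand for the T cell restricted and the shared members. The likeness was the Euclidean distance between centred log2 CPM values among 10214 genes, and smaller values mean closer profiles. Among the genes nearest to Ccl5 were Dzip1 (0.20) and Ikzf4 (0.40). Nearest to Cd44 were Pip4k2a (0.03), Elmo1 (0.03) and Cyld (0.03). With 5 libraries these distances are a description of levels and depend mainly on the difference between the cell types.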

How the data were processed

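Poly(A) RNA was sequenced from mouse spleen T and B cells. The deposited data are raw read counts of genes, as whole numbers beside exon lengths, in the layout of featureCounts. HISAT2, featureCounts and the builds hg38 and mm39 are named, per the submitters' processing notes; versions, annotation, strand and pair settings are not given there. The 10 columns were assigned to 5 groups by their labels, and the 2 columns of a group were summed.

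Summed counts were scaled by TMM (edgeR 4.0.16, R 4.3.3; factors 0.982 to 1.015). Log2 fold changes used a prior of 1 read, and a gene was called at 1.5-fold or more with 5 CPM or more in the higher library. Among low counts 72.0 to 74.8% were even, as counting both mates of a pair gives, so exact 95% intervals (scipy 1.17.1) were computed on reads divided by 2. Intervals cover counting error only. edgeR's quasi-likelihood test with Benjamini-Hochberg adjustment was run over 17581 genes on cell type and guide (2 residual degrees of freedom; call at adjusted p under 0.05, for cell type also 1.5-fold), with an interaction fit over 18669 genes. The script was tested on simulated data. DESeq2 1.42.0, other scalings, filters and priors, and leaving out libraries were alternatives. Exon overlaps were read from the deposited table, and shared stretches from GENCODE M21. The members and gene lists were chosen with earlier results of these data known. Named list genes were up to 4 per list by RPKM in mock T cells at 5 CPM or more. Others, such as Gzmb, Zeb2, Klrc1, Nfatc1, Nfatc2, Nfatc3 and Rel, were chosen after their values were seen. The list of nearest profiles is not reported in full here.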

Additional observations from a re-analysis of the deposited data

How the results depend on the processing

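For the 10 genes, 306 of 307 values recomputed under other settings stayed on their side of the threshold. The exception was Gzmm between the cell types without the T cell library with sgRNA-P1 (log2 difference 1.01). Other minimum levels leave a member's fold change as it is, and either column alone is a fixed share of the same counts. Those settings could hardly move a value. No difference between the cell types reversed. The guide term did not keep its direction for every gene. With a T library left out it rests on the B libraries, where Tbx21 had 0.13 and 0.14, against -0.06 in the full fit. Counts over all genes depended on the minimum level. With a minimum of 1 CPM the genes past 1.5-fold numbered 282 for sgRNA-P1 in T cells (11 at 5 CPM), 565 for sgRNA-P1 in B cells (74), 507 for sgRNA-P2 (28), 503 between the guides (42) and 6091 for mock T against mock B cells (3997). With a minimum of 20 CPM they numbered 6, 15, 2, 7 and 2531. The guide term of edgeR called 5 genes, 2 with scaling by total reads and 32 with no filter beyond 1 read. Leaving out 1 library gave 3 to 18: 3 without T cells with sgRNA-P1, 8 without mock T cells, 4 without mock B cells, 18 without B cells with sgRNA-P1 and 14 without B cells with sgRNA-P2. The cause was not tested. The 7347 cell type calls stayed within 1.5 times that number under each alternative run. No paired analysis was possible because the 2 columns of each group are 1 library, so the fit of 10 columns with a replicate block was not run. Each guide comparison rests on 1 library a side, and depth limits Il2, Gzmm and the B cell values of Ifng, Ccl5 and Nkg7.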
